A study of Mus musculus with 4 samples.

Results

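Translation initiation and elongation factors are the proteins that load ribosomes onto mRNA and move them along it. The genes described here were chosen by symbol, as those beginning with Eif or Eef followed by a digit, without the kinases Eif2ak1 to Eif2ak4 and Eef2k and without pseudogene symbols. The rule found 67 of the 25170 genes in the table, and 53 of these averaged 1 FPKM or more across the 4 libraries, the level required for a test, as 9741 genes did in all. FPKM are fragments scaled to transcript length and to the mapped fragments of the library, so levels of different genes are compared per length.

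The libraries hold ribosome footprints, the short RNA pieces that ribosomes shield from a nuclease, from E14 mouse embryonic stem cells. E14 is a line from the inner cell mass, labelled wild type, and all cells were grown on gelatin in medium with serum and leukemia inhibitory factor. The PD group was kept in 1 µM PD for 3 passages (2 libraries), and the DMSO group in the solvent DMSO for 3 passages (2 libraries). The series asks what the kinase Mek does to gene expression after transcription, and the labels name the compound only as PD. Nothing in them tells whether replicates are separate cultures, so a p-value here reflects only library-to-library spread, possibly technical. A footprint level depends on mRNA amount as well as on ribosome density, and no RNA-seq from these cells was used here. In such bulk samples, fewer cells of a type and less RNA per cell cannot be told apart.

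In initiation, eIF2 brings the initiator tRNA to the small ribosomal subunit, eIF2B recharges eIF2 with GTP, eIF3 holds the subunit open for mRNA, and the eIF4 factors bind the mRNA cap and unwind the leader. In elongation, eEF1A delivers aminoacyl-tRNAs, eEF2 moves the ribosome by a codon, and eIF5A helps it through stretches where peptide bonds form slowly. Many mRNAs of this machinery carry a pyrimidine tract at their first base, through which the kinase mTOR and the protein Larp1 control their translation. Embryonic stem cells are known for a low overall rate of translation that increases on differentiation.

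Depth differed between the groups. Relative to DMSO replicate 1, depth was 0.464 in PD replicate 1 and 0.201 in PD replicate 2, against 1.42 in DMSO replicate 2. The median protein-coding gene with recovered reads had 30 and 13 reads in the PD libraries, against 64 and 92 in the DMSO libraries. All 8 embryonic stem cell markers were above 0 in every library, with sums of 2212 and 3836 FPKM in PD and of 2260 and 2228 FPKM in DMSO. Dppa5a made up most of these sums, at 1421 and 3203 FPKM in PD and 1414 and 1633 FPKM in DMSO. Nanog and Zfp42 lay higher in both PD libraries than in both DMSO libraries, and Sox2 lay lower. Fibroblast markers summed to 2.67 and 3.44 FPKM in PD and to 1.95 and 2.33 FPKM in DMSO, with Lum and Postn at 0 in all libraries. Endoderm markers summed to 0.629 and 0.685 FPKM in PD and to 1.502 and 0.242 FPKM in DMSO, with Gata6 at 0 throughout. Trophectoderm markers summed to 5.32 and 12.1 FPKM in PD and to 5.68 and 11.2 FPKM in DMSO, with Cdx2 at 0 throughout.

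The start regions of 7 members are printed because their genes carry some of the differences described below or, for Eef1a1 and Eef2, are the main elongation factors. Each window runs from 20 bases before to 30 bases from a start listed in the RefSeq promoter table (GRCm38.p6), 5′ to 3′ on the strand of the gene. For Eif2b5, Eef1akmt2 and Eef1aknmt the listed start lies inside the outer end of the RefSeq gene. Capitals mark a C followed by at least 6 letters that are each C or T, searched on the gene's own strand only.
Eif3m, chr2:105016998-105017047, minus strand: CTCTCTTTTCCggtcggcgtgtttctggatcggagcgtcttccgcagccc
Eif2b5, chr16:20498797-20498846, plus strand: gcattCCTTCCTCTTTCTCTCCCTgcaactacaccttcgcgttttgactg
Eef2, chr10:81176611-81176660, plus strand: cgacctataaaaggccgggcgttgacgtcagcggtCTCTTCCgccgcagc
Eef1a1, chr9:78481695-78481744, minus strand: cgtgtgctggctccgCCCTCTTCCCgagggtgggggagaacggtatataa
Eif5a, chr11:69921929-69921978, minus strand: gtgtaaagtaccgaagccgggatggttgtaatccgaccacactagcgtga
Eef1akmt2, chr7:132852618-132852667, minus strand: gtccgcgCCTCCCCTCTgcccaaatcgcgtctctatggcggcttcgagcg
Eef1aknmt, chr1:162548316-162548365, minus strand: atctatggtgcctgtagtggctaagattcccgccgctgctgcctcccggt

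The windows of Eif3m, Eif2b5, Eef2, Eef1a1 and Eef1akmt2 hold a run, while the Eif5a window, at the first of its 6 listed starts, and the Eef1aknmt window hold none. The window of Eef1akmt4, which is described below but not printed, holds none either. Only in Eif2b5 and Eef1a1 does the run span the listed start. In Eif3m and Eef1akmt2 it ends before that start, and in Eef2 it begins after it. So a run in the window need not lie at the first base of the mRNA. Of the 51 members with a promoter in the RefSeq table, 18 had such a run in the window of a listed start. That is 35.3%, against 25.3% of 17491 protein-coding genes. The 18 include the noncoding gene Eif2c5, and the 51 count the shared start of Eef1akmt4 and its readthrough gene Eef1akmt4-ece2 for both. The 15 tested members with a run had a median log2 difference between PD and DMSO of 0.10, and the 27 without one had a median of -0.03. A run in this window is a description of the letters and does not show where transcription began in these cells.

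No translation factor gene differed between PD and DMSO by the test. Of 53 tested members, limma called 0 in either direction at an adjusted p under 0.05, against 0.257% of all tested genes, and the lowest adjusted p of a member was 0.816. At an unadjusted p under 0.05 there were 5 members, Eif3m, Eif5a, Eef1akmt1, Eef1akmt2 and Eef1aknmt, against 5.76% of all genes. Among the 34 tested members with recovered reads, voom called 0, with 1 at an unadjusted p under 0.05. The deposited confidence bounds overlapped between the groups for every tested member. The share over all genes was not taken, so this is not read as particular to the members.

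The members as a class stood at nearly the same footprint level in PD as in DMSO. Their FPKM summed to 5697 and 4745 in the PD libraries and to 5734 and 4602 in the DMSO libraries, which was 2.15% and 1.79% of the protein-coding sum in PD and 2.16% and 1.81% in DMSO. The lower sum was that of replicate 2 in each group. Log2 differences, given throughout as PD minus DMSO on log2(FPKM + 1), had a median of 0.01 over the 53 members, against -0.02 over all 9741 genes. 28 members lay above 0 and 25 below, and 36 lay within 0.25 of 0, as did 3981 of the 9741 genes. The median size of the difference was 0.17, against 0.32 over all genes. The members also had a median level of 49.97 FPKM, against 7.07 over all genes, and no comparison matched for level was made.

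Both PD libraries lay above both DMSO libraries for 5 members, Eif3m, Eif2b5, Eif2a, Eef1d and Eef2, or 9.43%, against 17.5% of all genes. Both PD libraries lay below for 11 members, or 20.8%, against 18.3% of all genes. These were Eif5a, Eef1akmt1, Eef1akmt2, Eef1akmt4, Eef1aknmt, Eif4enif1, Eef1e1, Eif3a, Eif4g3, Eif4g1 and Eif5. Both shares are near or under the background, and the other 37 members overlapped. With quantile normalization the counts were 8 above and 8 below.

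**Figure D1:**
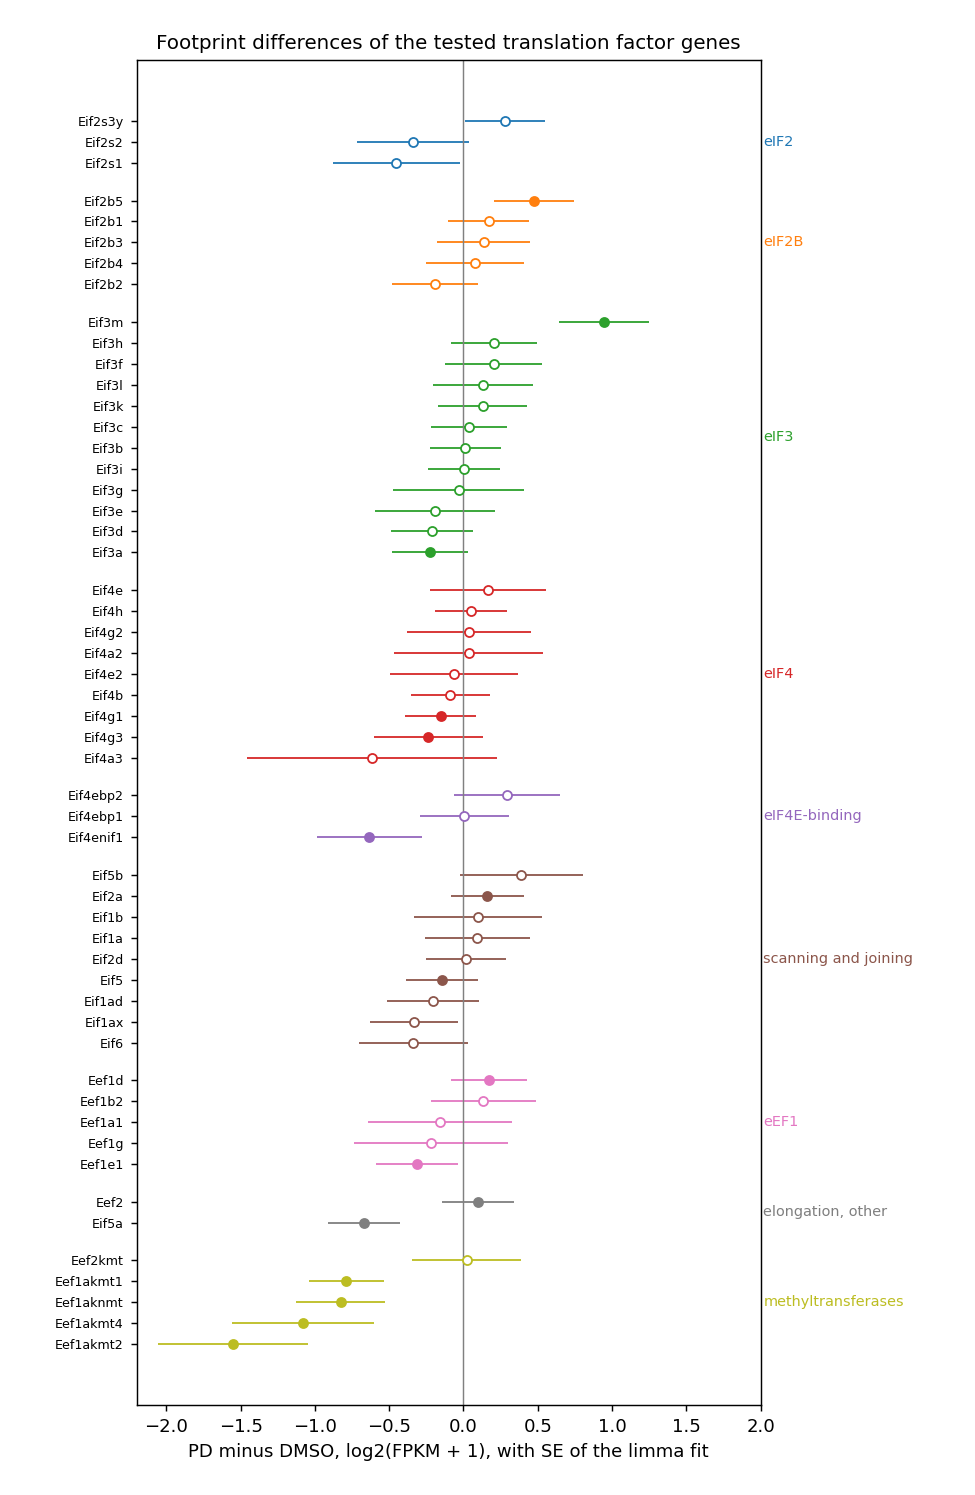
Log2 difference (PD minus DMSO, log2(FPKM + 1) scale) of each of the 53 tested members, grouped by complex, with its standard error from limma over 2 libraries per group. Filled points mark members whose groups do not overlap. Most members sit within 0.25 of 0, with Eif3m at 0.95 the highest and Eef1akmt2 at -1.55 the lowest.

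eIF2 is the trimer that carries the initiator tRNA, and 3 of its 4 genes were tested, with 0 called and no gene separated between groups (median log2 difference -0.34). Eif2s1, the alpha subunit that stress kinases phosphorylate, had 27.6 and 12.7 FPKM in PD and 26.8 and 25.4 FPKM in DMSO. PD replicate 2 alone was low, and the log2 difference of -0.45 (SE 0.43, limma adjusted p = 0.866) became 0.08 without it. Eif2s2, the beta subunit, had 16.7 FPKM in each PD library and 29.3 and 15.6 FPKM in DMSO, so DMSO replicate 1 alone was high (log2 difference -0.34, SE 0.38, limma adjusted p = 0.890, and 0.10 without that library).

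The gamma subunit was read from its Y-linked copy. Eif2s3y had 62.7 and 76.6 FPKM in PD and 63.1 and 51.3 FPKM in DMSO, with overlapping groups (log2 difference 0.28, SE 0.27, limma adjusted p = 0.866, and 0.13 to 0.43 with 1 library left out). The X-linked copy Eif2s3x was listed at 0.138 and 0 FPKM in PD and at 0.574 and 0.0451 FPKM in DMSO, below the level for a test. The copies are near-identical in sequence, and the sources used here do not say how reads that match both were assigned. The ratio of Eif2s3y to Eif2s1 was 2.27 and 6.02 in PD, against 2.35 and 2.016 in DMSO, and PD replicate 2 alone stood apart.

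eIF2B, the exchange factor that reloads eIF2 with GTP, had all 5 subunits tested, with 0 called and a median log2 difference of 0.14. Eif2b5, the catalytic epsilon subunit, had 50.1 and 67.0 FPKM in PD and 42.0 and 40.8 FPKM in DMSO. Both PD libraries were higher, with means of 58.5 ± 11.97 FPKM in PD and 41.4 ± 0.859 FPKM in DMSO (SD, 2 libraries each), a log2 difference of 0.47 (SE 0.27, limma adjusted p = 0.837, and 0.27 without PD replicate 2). The reads behind it were 253 and 147 in PD and 458 and 630 in DMSO. It was the only eIF2B subunit without overlap, or 20% of the 5, near the 17.5% of all genes with PD above.

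Eif2b4, the delta subunit and the highest of the 5, had 122 and 80.5 FPKM in PD and 105 and 83.6 FPKM in DMSO (log2 difference 0.08, SE 0.33, limma adjusted p = 0.977). Eif2b2, the beta subunit, had 22.9 and 26.0 FPKM in PD and 33.2 and 23.6 FPKM in DMSO (-0.19, SE 0.29, limma adjusted p = 0.924). Replicates of a group differed by more than the groups did in both genes. Eif2b1 and Eif2b3, the alpha and gamma subunits, had log2 differences of 0.17 and 0.14.

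eIF3, the large scaffold on the small subunit, lay close to 0 apart from 1 subunit. Of its 14 genes, 12 were tested and 0 were called. Within 0.25 of 0 lay 11 of the 12, against 36 of all 53 members and 3981 of 9741 genes. The tested subunits had a median mean level of 157 FPKM, against 7.07 over all genes, and no comparison matched for level was made. The median log2 difference was 0.03. The subunits' median level was 164 and 165 FPKM in the PD libraries, against 159 and 139 FPKM in the DMSO libraries.

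The exception was Eif3m, a scaffold subunit with a PCI domain. It had 142 and 191 FPKM in PD and 75.0 and 96.5 FPKM in DMSO. Both PD libraries lay above both DMSO libraries. Mean levels were 167 ± 34.4 FPKM in PD and 85.8 ± 15.1 FPKM in DMSO (SD, 2 libraries each), a ratio of 1.94 and a log2 difference of 0.95 (SE 0.30, limma adjusted p = 0.816).

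Eif3m rested on 314 and 183 recovered reads in PD and on 357 and 650 in DMSO, more than the median gene in each library. Its deposited bounds were 80.3 to 204 and 107 to 275 FPKM in PD, against 41.0 to 109 and 53.8 to 139 FPKM in DMSO, which overlap. Relative to the median of the other 11 tested eIF3 subunits, Eif3m stood at 0.835 and 1.19 in PD and at 0.451 and 0.591 in DMSO. The ratio was higher in both PD libraries, so the higher level of Eif3m was not shared by the typical subunit.

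The deposited locus of Eif3m (mm10, chromosome 2, 104886324 to 105017027) is 7.52 times as long as its RefSeq gene of 17372 bases. It was joined with Ccdc73, which had 0.249 and 0 FPKM in PD and 0 and 0.245 FPKM in DMSO. The log2 difference of Eif3m stayed between 0.74 and 1.16 over the alternatives tried, several of which cannot change it. Leaving out 1 library cannot turn the sign of a gene whose groups do not overlap.

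**Figure D2:**
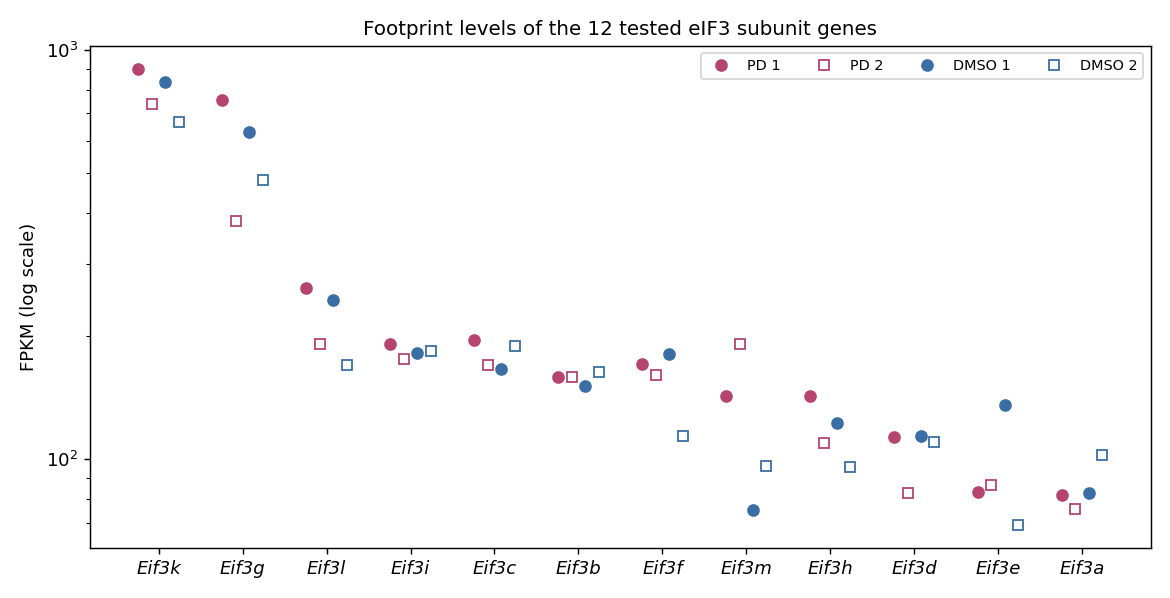
Footprint level (FPKM, log axis) of each tested eIF3 subunit in the 2 PD and the 2 DMSO libraries, with 1 point per library and subunits ordered by mean level. The points of most subunits intermingle, while the PD points of Eif3m (142 and 191 FPKM) lie above its DMSO points (75.0 and 96.5 FPKM).

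The subunits themselves differed far more from each other than between groups, with mean levels from 85.6 to 785 FPKM, a ratio of 9.17. Eif3k, a small peripheral subunit, was the highest, with 900 and 738 FPKM in PD and 834 and 665 FPKM in DMSO (log2 difference 0.13, SE 0.30, limma adjusted p = 0.950). Eif3g, which binds RNA near the mRNA entry channel, was second, with 757 and 382 FPKM in PD and 630 and 480 FPKM in DMSO. Eif3a, the largest scaffold subunit and the lowest here, had 81.8 and 75.5 FPKM in PD and 82.5 and 102 FPKM in DMSO. Its PD libraries lay below, one of them by under 1 FPKM (-0.22, SE 0.26, limma adjusted p = 0.891, and -0.07 without DMSO replicate 2).

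Eif3h, which has an MPN domain, had 143 and 110 FPKM in PD and 122 and 96.0 FPKM in DMSO (0.21, SE 0.29, limma adjusted p = 0.915, and 0.02 without PD replicate 1), and the groups overlapped. Eif3d, a subunit that can itself bind the cap, had 113 and 82.9 FPKM in PD and 114 and 110 FPKM in DMSO, a log2 difference of -0.21. The core subunits Eif3b and Eif3c and the WD-repeat subunit Eif3i had log2 differences of 0.01, 0.04 and 0.00. Eif3e, Eif3f and Eif3l lay at -0.19, 0.20 and 0.13, with overlapping groups. Eif3j1 and Eif3j2, copies of the loosely bound j subunit, were listed at 0 in all 4 libraries and share 1 deposited locus with Spg11 on chromosome 2, although RefSeq places Eif3j2 on chromosome 18.

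The eIF4 factors that bind the cap and unwind mRNA had 9 of 12 genes tested, 0 called, 0 with PD above, and Eif4g1 and Eif4g3 with PD below (median log2 difference -0.06). That is 0% above and 22.2% below, against 17.5% and 18.3% of all genes. Eif4e, the cap-binding protein whose phosphorylation lies downstream of ERK signalling, had 5.66 and 9.21 FPKM in PD and 8.19 and 4.88 FPKM in DMSO. The groups overlapped fully, with a log2 difference of 0.16 (SE 0.39, limma adjusted p = 0.953) from 58 and 41 reads in PD and 181 and 153 in DMSO. Its sign turned without PD replicate 2 and without DMSO replicate 2.

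Eif4g1, the main scaffold of the cap complex, had 39.6 and 38.0 FPKM in PD and 40.7 and 45.9 FPKM in DMSO, a log2 difference of -0.15. Eif4g3, a related scaffold, was just above the level for a test, with 0.985 and 0.756 FPKM in PD and 1.12 and 1.28 FPKM in DMSO (-0.23, SE 0.37, limma adjusted p = 0.928, and -0.15 without PD replicate 2). Both separations were small beside the SE. Eif4g2, a relative that does not bind Eif4e, had 31.7 and 22.0 FPKM in PD and 35.2 and 18.7 FPKM in DMSO and overlapped.

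Eif4a3, a helicase known for its place in the exon junction complex, had the largest log2 difference among the eIF4 genes, at -0.62 (SE 0.84, limma adjusted p = 0.910). It had 85.3 and 18.7 FPKM in PD and 91.3 and 42.3 FPKM in DMSO, so replicate 2 was low in both groups. PD replicate 2 held 22 reads, and without that library the difference was 0.45. Eif4h, a helicase cofactor and the highest of the group, had 147 and 146 FPKM in PD and 134 and 148 FPKM in DMSO (0.05, SE 0.24, limma adjusted p = 0.979). Eif4a2, a helicase of the cap complex, had 20.6 and 42.6 FPKM in PD and 21.4 and 38.9 FPKM in DMSO, high in replicate 2 of each group, with a log2 difference of 0.04. Eif4a2 shares its deposited locus with the small nucleolar RNA genes Snord2 and Snora81 and with Rfc4.

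The eIF4E-binding proteins hold Eif4e away from Eif4g1 when mTOR is inactive. Eif4ebp1, the highest of them, had 128 and 111 FPKM in PD and 142 and 99.6 FPKM in DMSO, a log2 difference of 0.01 (SE 0.30, limma adjusted p = 0.998). Eif4ebp1 over Eif4e was 22.6 and 12.1 in PD, against 17.3 and 20.4 in DMSO. Eif4ebp2 had 7.35 and 10.2 FPKM in PD and 5.32 and 8.85 FPKM in DMSO (0.29, SE 0.36, limma adjusted p = 0.902). The groups overlapped in both genes and in their ratio to Eif4e where it was taken.

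Eif4enif1, which carries Eif4e into the nucleus and to P-bodies, had 2.73 and 4.72 FPKM in PD and 5.32 and 7.11 FPKM in DMSO, with both PD libraries below (-0.63, SE 0.35, limma adjusted p = 0.837, and -0.32 without PD replicate 1). It rested on 20 and 15 reads in PD and on 84 and 159 in DMSO. Its deposited locus is 6.57 times the RefSeq gene and was joined with neighbours such as Drg1 and Limk2.

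Among the 9 tested factors of scanning, subunit joining and related steps, 0 were called, with a median log2 difference of 0.02. Eif2a, an alternative initiator tRNA carrier that is no subunit of eIF2, had 74.0 and 88.0 FPKM in PD and 73.6 and 70.4 FPKM in DMSO, a log2 difference of 0.16. Eif5, which triggers GTP hydrolysis by eIF2, had 24.5 and 26.5 FPKM in PD and 26.9 and 29.7 FPKM in DMSO, a difference of -0.14. Both were separated between groups, by less than 1 FPKM at the nearest pair of libraries.

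Eif5b, the GTPase that joins the subunits, had 12.8 and 18.6 FPKM in PD and 8.32 and 15.9 FPKM in DMSO (0.39, SE 0.41, limma adjusted p = 0.882). Eif6, which keeps the large subunit from joining too early, had 118 and 82.9 FPKM in PD and 159 and 99.2 FPKM in DMSO (-0.34, SE 0.37, limma adjusted p = 0.887) and was the highest of these factors. Without DMSO replicate 1 the Eif6 difference was -0.0003, and without PD replicate 2 it was -0.08. Eif1ax, which helps to scan for the start codon, had 27.0 and 37.5 FPKM in PD and 36.3 and 44.8 FPKM in DMSO, a difference of -0.33. All of these overlapped between groups. Eif1a, Eif1ad, Eif1b and Eif2d overlapped as well, with differences of 0.09, -0.21, 0.10 and 0.02.

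eEF1, which delivers aminoacyl-tRNAs and is recharged by its own exchange subunits, had 5 of 6 genes tested and 0 called (median log2 difference -0.16). Eef1a1, the tRNA carrier, had 263 and 214 FPKM in PD and 402 and 174 FPKM in DMSO. The PD libraries lay between the DMSO libraries, and the difference of -0.16 (SE 0.48, limma adjusted p = 0.966) became 0.44 without DMSO replicate 1. Reads were plentiful, at 897 and 316 in PD and 2957 and 1811 in DMSO.

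Eef1b2, an exchange subunit, had 260 and 268 FPKM in PD and 314 and 184 FPKM in DMSO, the same pattern as Eef1a1. Eef1g, a structural subunit of the exchange complex, had 34.8 and 15.7 FPKM in PD and 36.9 and 20.5 FPKM in DMSO (-0.22, SE 0.52, limma adjusted p = 0.953), low in replicate 2 of each group. All 5 tested eEF1 genes were higher in DMSO replicate 1 than in DMSO replicate 2, with a median log2 difference of 0.77 between these replicates. Eef1d, another exchange subunit, had 167 and 136.18 FPKM in PD and 136.17 and 132 FPKM in DMSO, a separation by the second decimal. Eef1e1, named as an elongation factor but known as a scaffold of the aminoacyl-tRNA synthetase complex, had 47.8 and 46.1 FPKM in PD and 68.6 and 49.9 FPKM in DMSO (-0.31, SE 0.28, limma adjusted p = 0.861, and -0.09 without DMSO replicate 1).

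**Figure D3:**
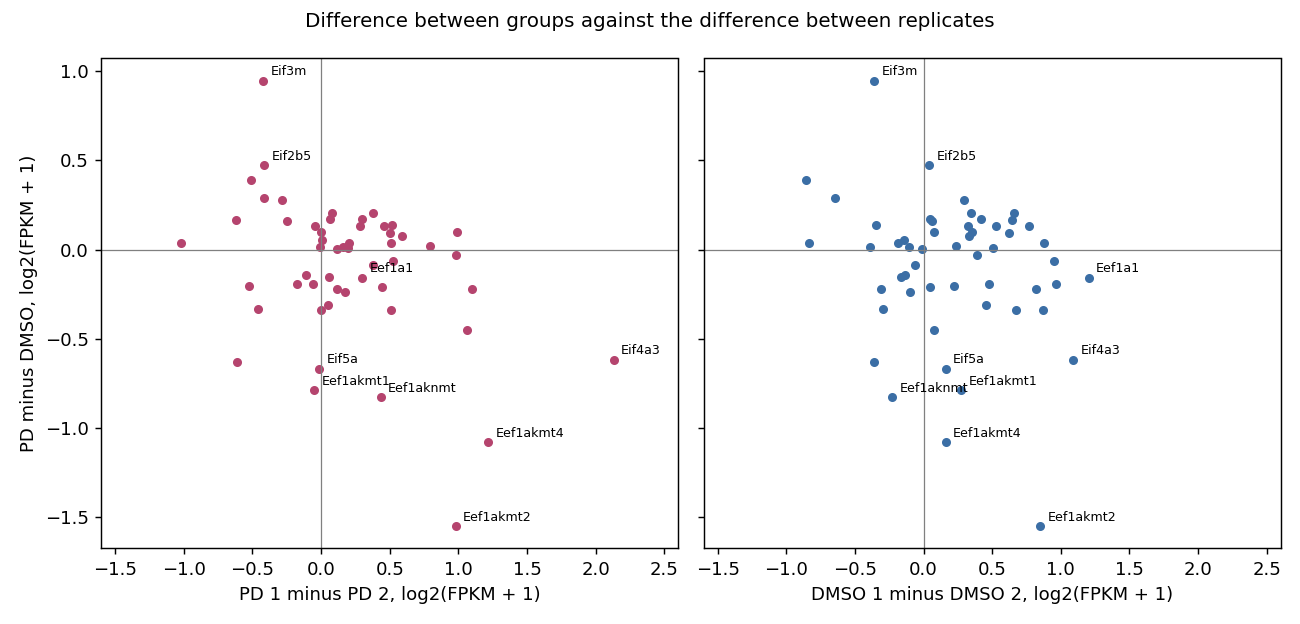
Log2 difference between PD and DMSO (vertical axis) against the log2 difference between replicates 1 and 2 of the PD group (left) and of the DMSO group (right), with 1 point per tested member on the log2(FPKM + 1) scale. In each panel 35 of 53 members lie right of 0. Eif4a3 shows a wide replicate difference in both panels and Eef1a1 in the DMSO panel, each beside a smaller group difference.

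Replicate 1 was above replicate 2 for 35 of 53 members in PD and for 35 of 53 in DMSO, or 66.0% in each group, against 49.8% of all genes in PD and 50.6% in DMSO. The median log2 difference between replicates was 0.12 in PD and 0.22 in DMSO. The labels do not say what replicate numbers share, and the part of depth or culture in this was not tested.

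Eef2, the translocase that Eef2k inhibits, had 236 FPKM in each PD library and 226 and 214 FPKM in DMSO. The PD libraries lay above, with a log2 difference smaller than its SE, at 0.10 (SE 0.24, limma adjusted p = 0.955, and 0.06 without DMSO replicate 2). Eef2 shares its deposited locus with the small nucleolar RNA gene Snord37.

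Eif5a (mm10, chromosome 11, 69916712 to 69921958), whose protein carries the amino acid hypusine, had 107 and 108 FPKM in PD and 181 and 162 FPKM in DMSO. Both PD libraries were low, and each group was tight. Mean levels were 107 ± 0.624 FPKM in PD and 171 ± 13.7 FPKM in DMSO (SD, 2 libraries each), a ratio of 0.626 and a log2 difference of -0.67 (SE 0.24, limma adjusted p = 0.837).

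Eif5a over Eef2 was 0.453 and 0.457 in PD, against 0.802 and 0.755 in DMSO. With Eif5a lower and Eef2 higher in both PD libraries, this ratio could only be lower there. It adds nothing beyond the levels of the 2 genes. No whole reads could be recovered for Eif5a, so its counting error is not known. The difference stayed between -0.75 and -0.59 over the alternatives that gave a value, several of which cannot change it. As the groups do not overlap, leaving out 1 library could not turn its sign. Eif5a2, a close relative of Eif5a, had 0.0966 and 0.445 FPKM in PD and 0.448 and 0.569 FPKM in DMSO and was not tested.

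The enzymes that methylate elongation factors had 5 of 6 genes tested, 0 called and a median log2 difference of -0.83. Those that act on eEF1A, singled out with their values known, had the lowest log2 differences of all members. In each of the 4 tested, both libraries with PD lay below both with DMSO (median -0.95), as did 18.3% of all genes. Eef1akmt1, a lysine methyltransferase (mm10, chromosome 14, 57549595 to 57571582), had 14.3 and 14.8 FPKM in PD and 28.6 and 23.4 FPKM in DMSO (-0.79, SE 0.25, limma adjusted p = 0.816). Eef1akmt2, another lysine methyltransferase, had 4.79 and 1.93 FPKM in PD and 15.2 and 7.98 FPKM in DMSO (-1.55, SE 0.51, limma adjusted p = 0.823).

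Eef1aknmt, which methylates the N terminus of eEF1A and a lysine, had 5.40 and 3.73 FPKM in PD and 8.01 and 9.55 FPKM in DMSO (-0.83, SE 0.30, limma adjusted p = 0.837). Eef1akmt4 had 11.97 and 4.57 FPKM in PD and 18.0 and 16.0 FPKM in DMSO (-1.08, SE 0.48, limma adjusted p = 0.837), and its difference was -0.47 without PD replicate 2. The groups did not overlap in either gene, and PD replicate 2 was the lowest library in both.

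Of the tested members with recovered reads, Eef1akmt1 and Eef1aknmt were among those with the fewest. Eef1akmt1 had 20 and 9 reads in PD and 86 and 100 in DMSO. Eef1aknmt had 10 and 3 in PD and 32 and 54 in DMSO. Recovered reads are the smallest set possible, so true counts can be higher. No reads were recovered for Eef1akmt2 or Eef1akmt4. The deposited locus of Eef1akmt4 is 4.72 times its RefSeq gene and was joined with Ece2, Camk2n2 and a readthrough gene. The shallower libraries were the PD libraries, and the part of depth in these differences was not tested.

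The 4 genes summed to 36.5 and 25.1 FPKM in PD and to 69.7 and 56.9 FPKM in DMSO. Each lay lower in both PD libraries, so their sum could only be lower there too. Relative to their substrate Eef1a1, the sum was 13.9% and 11.7% in PD and 17.3% and 32.7% in DMSO. Eef1a1 itself varied between the DMSO libraries. Eef2kmt, which methylates eEF2 instead, had 23.2 and 13.0 FPKM in PD and 18.6 and 15.7 FPKM in DMSO, with a log2 difference of 0.02. Eef1akmt3 had 0.936 and 0 FPKM in PD and 0 and 1.23 FPKM in DMSO and was not tested.

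**Figure D4:**
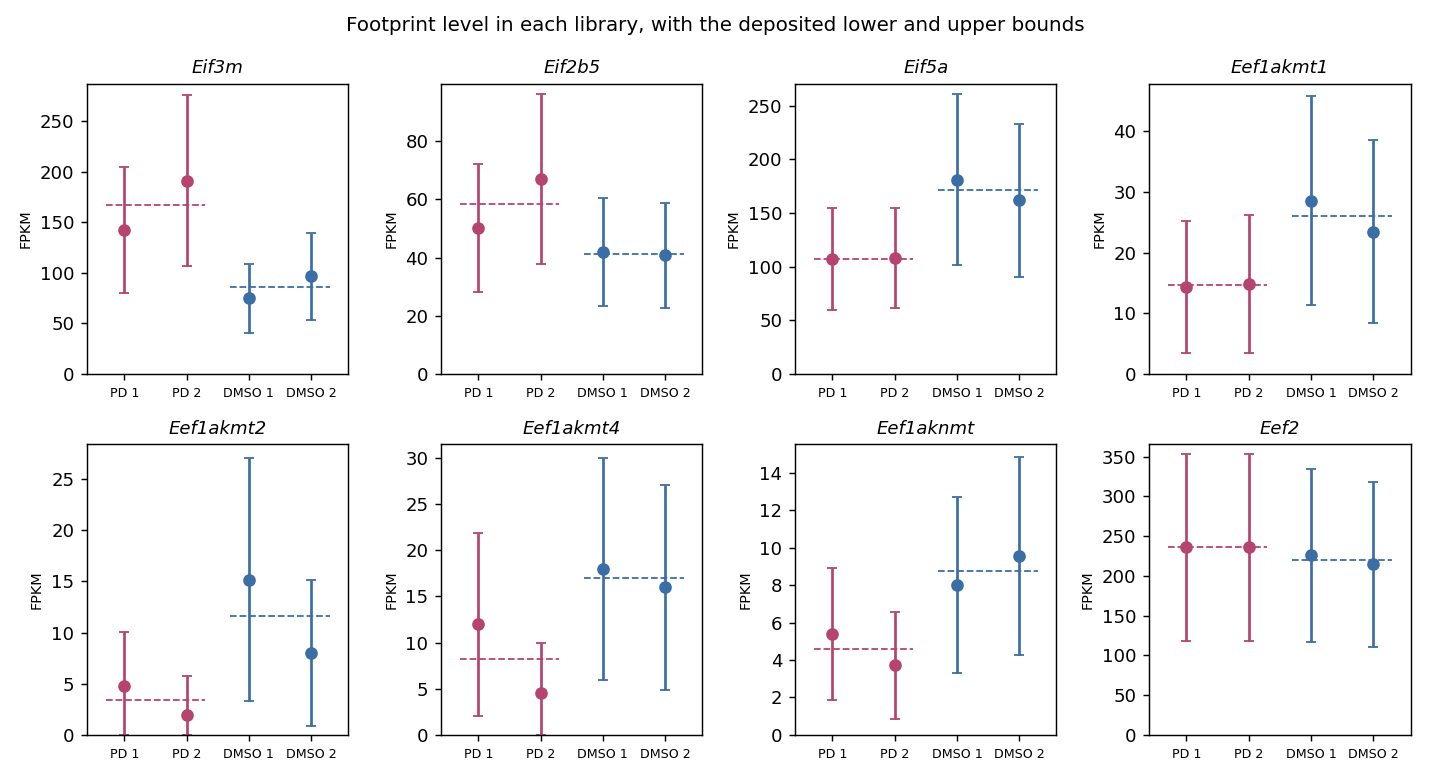
Footprint level (FPKM, linear axes from 0) in each library of 8 members, with the deposited lower and upper bounds as bars and each group's mean as a dashed line, PD libraries left of DMSO libraries. The points of Eif3m, Eif2b5 and Eef2 lie higher in both PD libraries, those of Eif5a and the 4 eEF1A methyltransferases lie lower in both, and the bars of the groups overlap in every panel.

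The 14 members below the level for a test had mean levels from 0 to 0.922 FPKM, and 5 of them were listed at 0 in all libraries: Eif2c5, Eif3j1, Eif3j2, Eif4a3l1 and Eif4e3. Eif2c5 is a noncoding gene in RefSeq. Eif1, which every cell uses to select start codons, stood at 0 in each PD library and at 0 and 0.144 FPKM in DMSO. Eif4a1, the main helicase of the cap complex, had 0.838 and 0 FPKM in PD and 0.259 and 0.548 FPKM in DMSO. Such values for genes in general use can be failed estimates and are not read as absence. Eif4ebp3 had 0.490 and 2.26 FPKM in PD and 0.455 and 0.482 FPKM in DMSO, and Eef1a2, the form of eEF1A known from muscle and neurons, had 0.599 and 0.276 FPKM in PD and 0.111 and 0.275 FPKM in DMSO.

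None of the genes that control the factors passed. Of 23 tested kinases and regulators, limma called 0, with 1 gene above (Eif2ak2) and 3 below (Mtor, Gcn1 and Pdcd4) in both PD libraries, or 4.35% and 13%, under the 17.5% and 18.3% of all genes. Their median log2 difference was -0.02. Pdcd4, which blocks the eIF4A helicase, had 17.4 and 8.02 FPKM in PD and 24.1 and 31.5 FPKM in DMSO (-1.15, SE 0.44, limma adjusted p = 0.837, and -0.63 without PD replicate 2). Its reads were 60 and 12 in PD and 179 and 331 in DMSO, and its deposited locus is 3.11 times the RefSeq gene. Eif2ak2, the eIF2 kinase that senses double-stranded RNA, had 5.99 and 4.16 FPKM in PD and 3.09 and 2.37 FPKM in DMSO (0.69, SE 0.32, limma adjusted p = 0.837). Eef2k and Mknk2, which phosphorylate Eef2 and Eif4e, overlapped between groups.

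Of 13 tested genes of termination, recycling and poly(A) binding, limma called 0, with 2 above (Gspt2 and Abce1), 2 below (Pelo and Paip2b) and a median of 0.11. The share without overlap was 15.4% in each direction, under the 17.5% above and 18.3% below of all genes. Abce1, which splits ribosomes after termination, had 85.6 and 113 FPKM in PD and 71.2 and 66.5 FPKM in DMSO (0.51, SE 0.27, limma adjusted p = 0.837). Pelo, a factor that rescues stalled ribosomes, had 7.82 and 3.91 FPKM in PD and 8.51 and 9.12 FPKM in DMSO (-0.58, SE 0.38, limma adjusted p = 0.837). Its reads were 23 and 5 in PD and 54 and 82 in DMSO, and its deposited locus is 79.8 times the RefSeq gene. Leaving out a PD library moved Pelo to -1.00 (replicate 1) or -0.15 (replicate 2), and Abce1 had 0.31 without PD replicate 2.

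Of 10 tested enzymes that modify elongation factors or assemble eIF2, limma called 0, with 1 above (Dph6), 2 below (Dhps and Dph5) and a median of -0.17. These shares of 10% and 20% compare with 17.5% and 18.3% of all genes. Dhps, which starts the hypusine modification of eIF5A, had 21.0 and 12.3 FPKM in PD and 25.3 and 25.5 FPKM in DMSO (-0.62, SE 0.34, limma adjusted p = 0.837). It stood at -0.99 without PD replicate 1 and at -0.26 without PD replicate 2. The deposited locus of Dhps is 2.44 times its RefSeq gene, and no reads were recovered for Dhps. Dohh, which completes the hypusine modification, had 60.4 and 61.3 FPKM in PD and 85.4 and 45.4 FPKM in DMSO, with overlapping groups. Dnajc24, a cofactor of diphthamide synthesis on eEF2, had 16.3 and 12.5 FPKM in PD and 37.3 and 16.2 FPKM in DMSO (-0.75, SE 0.47, limma adjusted p = 0.837), and the groups overlapped narrowly. DMSO replicate 1 alone was high, and the difference was -0.17 without it and -1.32 without DMSO replicate 2.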

How the data were processed

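Ribosome footprints of 4 libraries, 2 with PD and 2 with DMSO, were analysed. The authors deposited FPKM for 25170 genes, and per the file headers each value has a lower bound, an upper bound and a status in the Cufflinks layout. The submitters' processing notes list mm10 as the build and, as tools, STAR, Bowtie2, Cufflinks, Trimmomatic and FastQC. The sources used here give no versions and no handling of reads that match several genes. 1 gene with another status, Rmrp, was left out.

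The members and lists were chosen with earlier results of these data known. Genes averaging 1 FPKM or more were tested on log2(FPKM + 1) by lmFit and trended eBayes of limma 3.58.1 (R 4.3.3), using group alone as a term, 2 residual degrees of freedom and Benjamini-Hochberg adjustment over all 9741 genes at a threshold of 0.05. This scale understates the change of low genes. The code of the fit was checked on simulated data. Their spread was capped low and their shifts were larger than any difference of a member, so power here was not tested.

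Depth is not stated in the files. FPKM of genes counted in whole reads are multiples of what 1 read is worth. On this basis 73.9% of 10161 genes above 0 in all libraries gave whole reads (tolerance 0.02 reads), against 2.44% with wrong steps. Each set is the smallest one possible and reflects counting error only. Of the 53 tested members, 34 had them.

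Full statistics are given for the highest member and the 2 largest differences of each complex, the 6 highest and 6 lowest differences of all members, Eif5a, Eif3m, Eif4e, Eif4ebp1, Eif2s1, Eef1a1 and Eef2, and the 2 largest differences of each pathway list. Other members are described by value, as the rule fixes them by symbol. Names, gene types and sequences came from RefSeq (GRCm38.p6, equivalent to mm10), in which all 67 members and 24976 of the symbols were found. 1 was added to deposited starts, which equal the RefSeq start minus 1 for 48 of the members. Replicate numbers are shared between groups but are not said to mark a culture, and no block was used. The alternatives were another pseudocount, other filters, quantile and rescaled values, no variance trend, a replicate block, voom on recovered reads, protein-coding genes alone and leaving out each library.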

Additional observations from a re-analysis of the deposited data

How the results depend on the processing

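No translation factor gene passed under any of the 13 alternatives, where the lowest adjusted p of a named gene was 0.415 (limma). Of 431 values of the 34 named genes, 411 kept their direction and 20, from 13 genes, did not. Many of the 411 could not turn. The filters, the variance trend, the replicate block and protein-coding genes alone leave a log2 difference unchanged. The 2 libraries per group and shallow PD libraries limit all of these results. Among all genes, 3 passed higher and 22 lower in PD, none of them protein-coding. Leaving out 1 library gave 0 to 27 higher (27 without PD replicate 2, 13 without PD replicate 1) and 0 to 20 lower, with 0 in both directions without either DMSO library. Voom on recovered reads, over 5970 genes with at least 50 reads, gave 0 and 0, with 366 at an unadjusted p under 0.05. Protein-coding genes alone, an alternative chosen after seeing the data, also gave 0 and 0. With the replicate block, 2 genes passed higher and 17 lower, and 0 members. Deviations of libraries with the same number correlated at r = 0.0992 over 9741 genes and at 0.204 over the 8861 protein-coding ones. The labels do not say that a number marks a shared culture, so the numbers are not treated as pairs. The count of members with PD above was 8 without the filter, 8 with quantile normalization and 3 with voom, against 5, and the count with PD below was 8 with quantile normalization and 6 with voom, against 11. Voom tested 34 members only. The sign of Eif3k turned with quantile normalization (-0.24) and that of Eif4ebp1 in the rescaled table (-0.023). Leaving out 1 library turned the sign of 13 genes. The ranges were -0.76 to 0.44 for Eef1a1, -0.77 to 0.33 for Eef1g, -0.43 to 0.047 for Eif2b2, -0.22 to 0.37 for Eif2b4, -0.98 to 0.079 for Eif2s1, -0.77 to 0.10 for Eif2s2, -0.033 to 0.29 for Eif3k, -1.68 to 0.45 for Eif4a3, -0.16 to 0.49 for Eif4e, -0.24 to 0.26 for Eif4ebp1, -0.030 to 0.61 for Eif4ebp2, -0.020 to 0.12 for Eif4h and -0.040 to 0.82 for Eif5b. The cause of these turns was not tested, beyond the single library that each leaves out.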
